A study of Mus musculus with 17 samples.

Results

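The mitochondrial ribosomal protein genes were taken as the protein-coding genes whose symbol starts with Mrpl or Mrps followed by a digit. There were 78 such genes among the 55335 genes counted, 49 named Mrpl and 29 named Mrps, and 75 of them had enough counts to be tested. They were followed in 17 bulk RNA-seq libraries of SSCs (skeletal stromal/stem cells, sorted as CD51+ Sca-1+ PDGFRα+) and OPCs (osteoblast progenitor cells, sorted as CD51+ Sca-1-) from the bone fraction of female mice aged 8 to 12 weeks. The mice were WT, +/1013 or 1013/1013 littermates, the latter carrying on 1 or both alleles of Cxcr4 a knock-in mutation that truncates the intracellular tail of this chemokine receptor, in every cell and from the germline. Each library came from a pool of 3000 sorted cells of 3 mice, so that its values are averages over these mice and the p-values measure the spread between pools. Each of the 6 groups had 3 libraries, apart from the 1013/1013 SSCs with 2.

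The mitochondrial ribosome is built from RNAs transcribed inside the organelle and from proteins that are encoded in the nucleus, made in the cytosol and imported. It translates the few mRNAs of the mitochondrial genome, which encode core subunits of the respiratory chain and of ATP synthase. Its large subunit carries the peptidyl transferase centre and the exit tunnel, and its small subunit binds the mRNA and decodes it. Some of its proteins descend from bacterial ribosomal proteins and others have been added in mitochondria. In stromal cells of bone, mitochondrial activity is known to change with osteogenic differentiation.

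By subunit, 51 of the 78 genes encode large subunit proteins and 26 small subunit proteins, and Mrps36 encodes a component of the 2-oxoglutarate dehydrogenase complex in spite of its name. By a grouping from general knowledge, 46 of them were counted as having a bacterial counterpart and 32 as without one. The place of single genes in this grouping was not verified, and that of Mrpl55 among the 46 is in doubt. They lie on 17 chromosomes, with at most 11 on any of them. Exons of 33 members share bases with another gene, on the same strand for 8 and on the opposite strand for 28, so that their reads could be split or discarded by the counting, and 43 of the 45 members free of overlap were tested. Mrps10 had 0 counts in all 17 libraries, which allows up to 0.0324 to 0.0679 CPM (3 counts) of reads assigned to it, by counting error only. Neither Mrps10 nor Mrps23 shares exon bases with another gene, and whether their reads were assigned to them was not tested, so these low counts do not set a limit on their expression. Mrps23 had 0 to 5 counts and Mrpl53 0 to 8, with 0 in 9 and 14 libraries respectively. Among the tested members the lowest counts were those of Mrps36, 57 to 303, and Mrpl23, 41 to 405.

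The counts on genes ran from 64099849 to 92683497 in OPC libraries and from 44217695 to 50509592 in SSC libraries. As sums, the markers went with the sorting labels. Ly6a, Pdgfra and Itgav encode Sca-1, PDGFRα and CD51. Their summed level was 1143 to 2396 CPM (counts scaled to a common library total) in SSCs and 104 to 159 CPM in OPCs. Ly6a and Pdgfra were each higher in SSCs without overlap. Itgav, whose product was sorted for in both cell types, overlapped. It was higher in SSCs in WT (68.002 to 84.8 against 20.6 to 57.6 CPM in OPCs). In 1013/1013 it was lower in SSCs (28.2 to 38.2 against 43.5 to 65.4 CPM), and in +/1013 the ranges overlapped. The osteoblast lineage list (Sp7, Alpl, Bglap, Ibsp and Col1a1) summed to 92831 to 225239 CPM in OPCs and to 2263 to 16578 CPM in SSCs. The share of counts on Col1a1 and Col1a2 alone was 16.1% to 38.7% across OPC libraries and 0.563% to 2.78% across SSC libraries, which bears on every level in CPM. Leukocyte markers (8 genes, among them Lyz2 and S100a9) summed to 7346 CPM in OPC 1013/1013 replicate 2, 6917 CPM in OPC WT replicate 3 and 3856 CPM in SSC WT replicate 3, against 29.5 to 1002 CPM in the other libraries. The labels name no batch, so batch and cell type cannot be told apart. In bulk RNA, fewer cells of a type and less RNA per cell cannot be told apart either.

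Levels per length of the tested members spanned more than 2 orders of magnitude in OPCs and less than that in SSCs. In OPCs the highest mean levels, in TPM (counts per exon base, scaled to a common total, over 9 libraries), were 172 ± 25.4 (SD) for Mrpl28, 150 ± 29.0 for Mrps28, 110 ± 27.9 for Mrpl34, 96.7 ± 15.1 for Mrpl36 and 95.2 ± 16.7 for Mrpl2. Mrpl34 and Mrpl36 encode very small proteins of the large subunit, and Mrps28 encodes a small subunit protein. In SSCs (8 libraries) the order began with Mrpl27 at 151 ± 29.2 TPM, followed by Mrpl28 at 134 ± 32.5, Mrps28 at 130 ± 27.5, Mrpl2 at 116 ± 23.2 and Mrpl4 at 104 ± 15.4. In SSCs neighbours in this order lay within 1 SD of each other, so that their order is not resolved, and in OPCs the same held except between Mrps28 and Mrpl34. The lowest tested members in OPCs were Mrpl23 at 0.898 ± 0.409 TPM, Mrps36 at 3.40 ± 0.674 and Mrpl33 at 5.32 ± 1.16. In SSCs they were Mrpl23 at 3.62 ± 0.958 TPM, Mrpl47 at 6.71 ± 1.17 and Mrps22 at 8.46 ± 2.95. The order of the 78 mean levels was much the same in both cell types, with a Spearman rho of 0.909 across genes, which share the libraries and the gene lengths and are not independent replicates. The choice of gene length bears on the order, since Mrps28 came to 113 TPM in OPCs and 101 TPM in SSCs with the longest transcript in place of all exon bases.

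**Figure D1:**
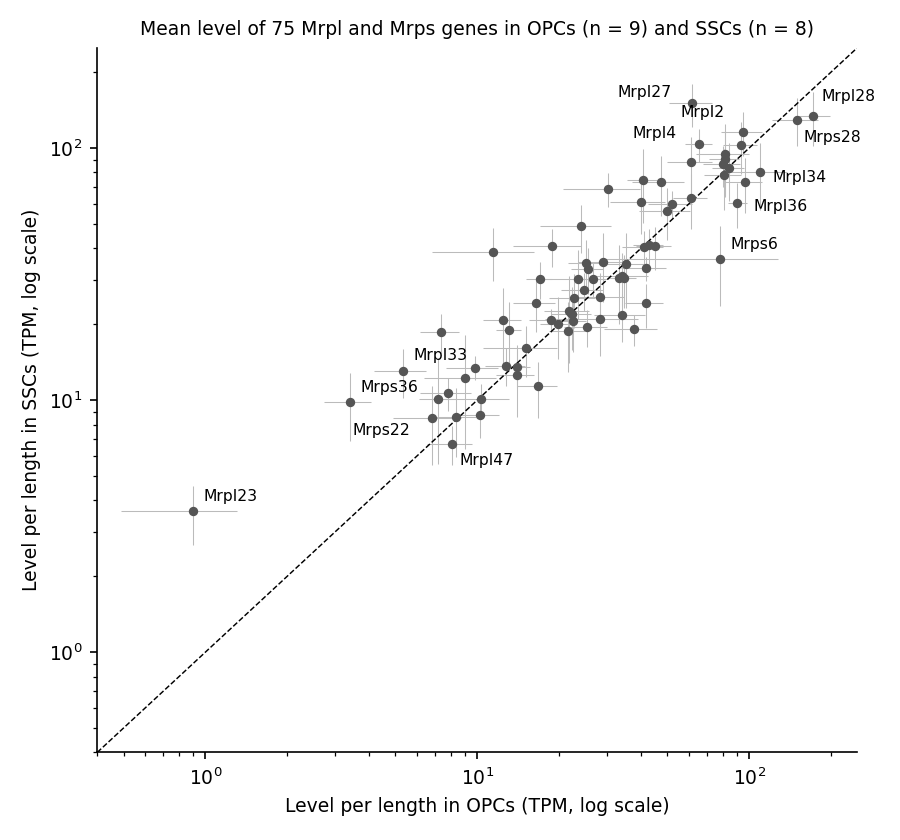
Mean level per length of the 75 tested members in OPCs (x axis, 9 libraries) and SSCs (y axis, 8 libraries), in TPM on log axes, with lines of 1 SD and a dashed line of equal level. Most members lie close to the dashed line, Mrpl27, Mrpl33, Mrps36 and Mrpl23 lie above it, and Mrps6, with a wide SD in OPCs, lies below it.

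The summed level of all 78 members asks how much of the RNA pool the family takes. It was 1277, 1499 and 1593 CPM in WT OPCs and 1764, 1818 and 1527 CPM in WT SSCs, so the groups overlapped. In +/1013 SSCs it was 2275, 2002 and 2099 CPM, and in 1013/1013 SSCs 2783 and 1906 CPM, with every mutant SSC library above every WT one. In mutant OPCs it lay between 1323 and 1755 CPM for +/1013 and between 1400 and 1571 CPM for 1013/1013. The 1013/1013 values lay within the range of WT OPCs, and the +/1013 values overlapped it, with the highest above every WT OPC library. On the log2 scale the SSC means exceeded WT by 0.32 in +/1013 and 0.46 in 1013/1013, and both differences kept their sign and their lack of overlap when Col1a1 and Col1a2 were taken out of the total (0.29 and 0.44) and with median-of-ratios size factors (0.55 and 0.70). An exact permutation test cannot go below p = 0.1 for 3 against 3 libraries or p = 0.2 for 3 against 2, and no p is given. The WT difference between cell types, in contrast, changed sign with the scale. SSCs stood 0.23 above OPCs by CPM, -0.38 without the collagens and -0.60 with size factors. Large subunit genes took 2.34 to 2.81 times the CPM of small subunit genes in every library.

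**Figure D2:**
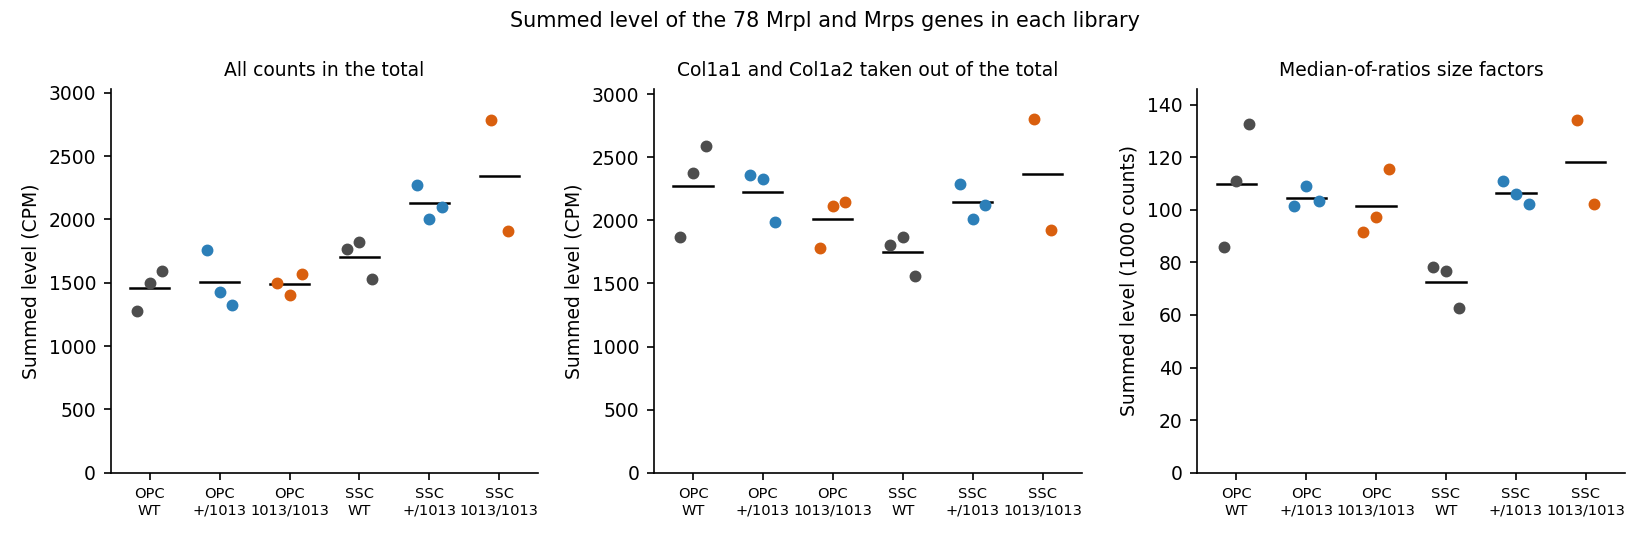
Summed level of the 78 members in each library (points) with group means (lines), by genotype and cell type, in CPM, in CPM with Col1a1 and Col1a2 taken out of the total, and in counts over size factors (1000 counts). On all 3 scales every mutant SSC library lies above the WT SSC libraries, while the position of SSCs relative to OPCs depends on the scale.

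SSCs were first compared with OPCs within WT mice, the question being how the family differs along the osteogenic lineage. Of the 75 members tested, 20 were called lower in SSCs and 0 higher (edgeR quasi-likelihood, adjusted p under 0.05 and at least 1.5-fold), where 5.86% of all 20238 genes were called lower and 5.55% higher. The median log2 difference was -0.53 over the members and 0.17 over all genes. The pattern ran through both subunits, with 13 of 50 large subunit members called lower (median -0.55) and 7 of 24 small subunit members (median -0.47). Of the members counted as having a bacterial counterpart 13 of 45 were called lower (median -0.53). Of those counted as without one it was 7 of 30 (median -0.56), a difference that was not tested. The members without exon overlap gave 12 of 43 and a median of -0.50. The count and the median depended on the libraries. With the 3 libraries rich in leukocyte markers left out, 2 members were called lower and 1 higher, and the median was -0.27 (-0.36 relative to all genes). Without OPC WT replicate 3 alone 10 were called and the median was -0.33. The number called was 11 without OPC WT replicate 2 or SSC WT replicate 3, 13 without SSC WT replicate 1 or 2, and 24 without OPC WT replicate 1. With scaling by library totals only, 14 of the 16 called members were higher in SSCs, but the median of all genes then moved to 0.94 and that of the members to 0.25, so that relative to all genes the members stood at -0.69, against -0.71 in the test as run.

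The largest of these differences was that of Mrpl43, a large subunit protein without a bacterial counterpart. Its level, in CPM scaled by TMM factors over the 17 libraries, was 15.9, 20.3 and 26.4 in WT OPCs and 5.81, 7.97 and 5.41 in WT SSCs. The groups did not overlap, and the log2 difference was -1.70 ± 0.28 (SE, adjusted p = 0.00159). Mrpl17, a large subunit protein of bacterial origin, was at 52.9, 98.2 and 101 in WT OPCs and 28.7, 28.6 and 24.6 in WT SSCs (-1.62 ± 0.27, adjusted p = 0.0019). Mrpl34 was at 13.1, 25.5 and 30.9 in WT OPCs against 8.004, 9.51 and 6.58 in WT SSCs (-1.53 ± 0.34, adjusted p = 0.0112). In both genes OPC replicate 1 was the lowest of the WT OPC libraries but still above every WT SSC library. Mrps28 was at 26.1, 40.9 and 50.8 in WT OPCs against 19.4, 15.5 and 14.7 in WT SSCs (-1.25 ± 0.25, adjusted p = 0.00568). Mrpl28, the most abundant member in OPCs per length, was at 50.3, 69.7 and 94.2 against 35.6, 31.0 and 31.8 (-1.12 ± 0.22, adjusted p = 0.00511). Mrpl36 (-1.29), Mrpl30 (-1.10) and Mrpl58 (-1.10), the last encoding a peptidyl-tRNA hydrolase that became part of the large subunit and rescues stalled ribosomes, completed the 8 largest falls among called members. Mrps6 had an estimate of -1.24 and was not called (adjusted p = 0.0939). The other 12 called members lay between -1.10 (Mrps34) and -0.74 (Mrpl37).

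No member was called higher in WT SSCs. The members with the smallest p in that direction were Mrpl33, at 0.97 (adjusted p = 0.0571), Mrpl23, at 1.45 (adjusted p = 0.109), and Mrpl27, at 0.58 (adjusted p = 0.139). Mrpl33 read 8.43, 10.01 and 18.4 scaled CPM in WT OPCs and 30.2, 21.7 and 20.2 in WT SSCs. The groups did not overlap there, and OPC WT replicate 3, which was rich in leukocyte markers, was the highest OPC library of all genotypes.

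**Figure D3:**
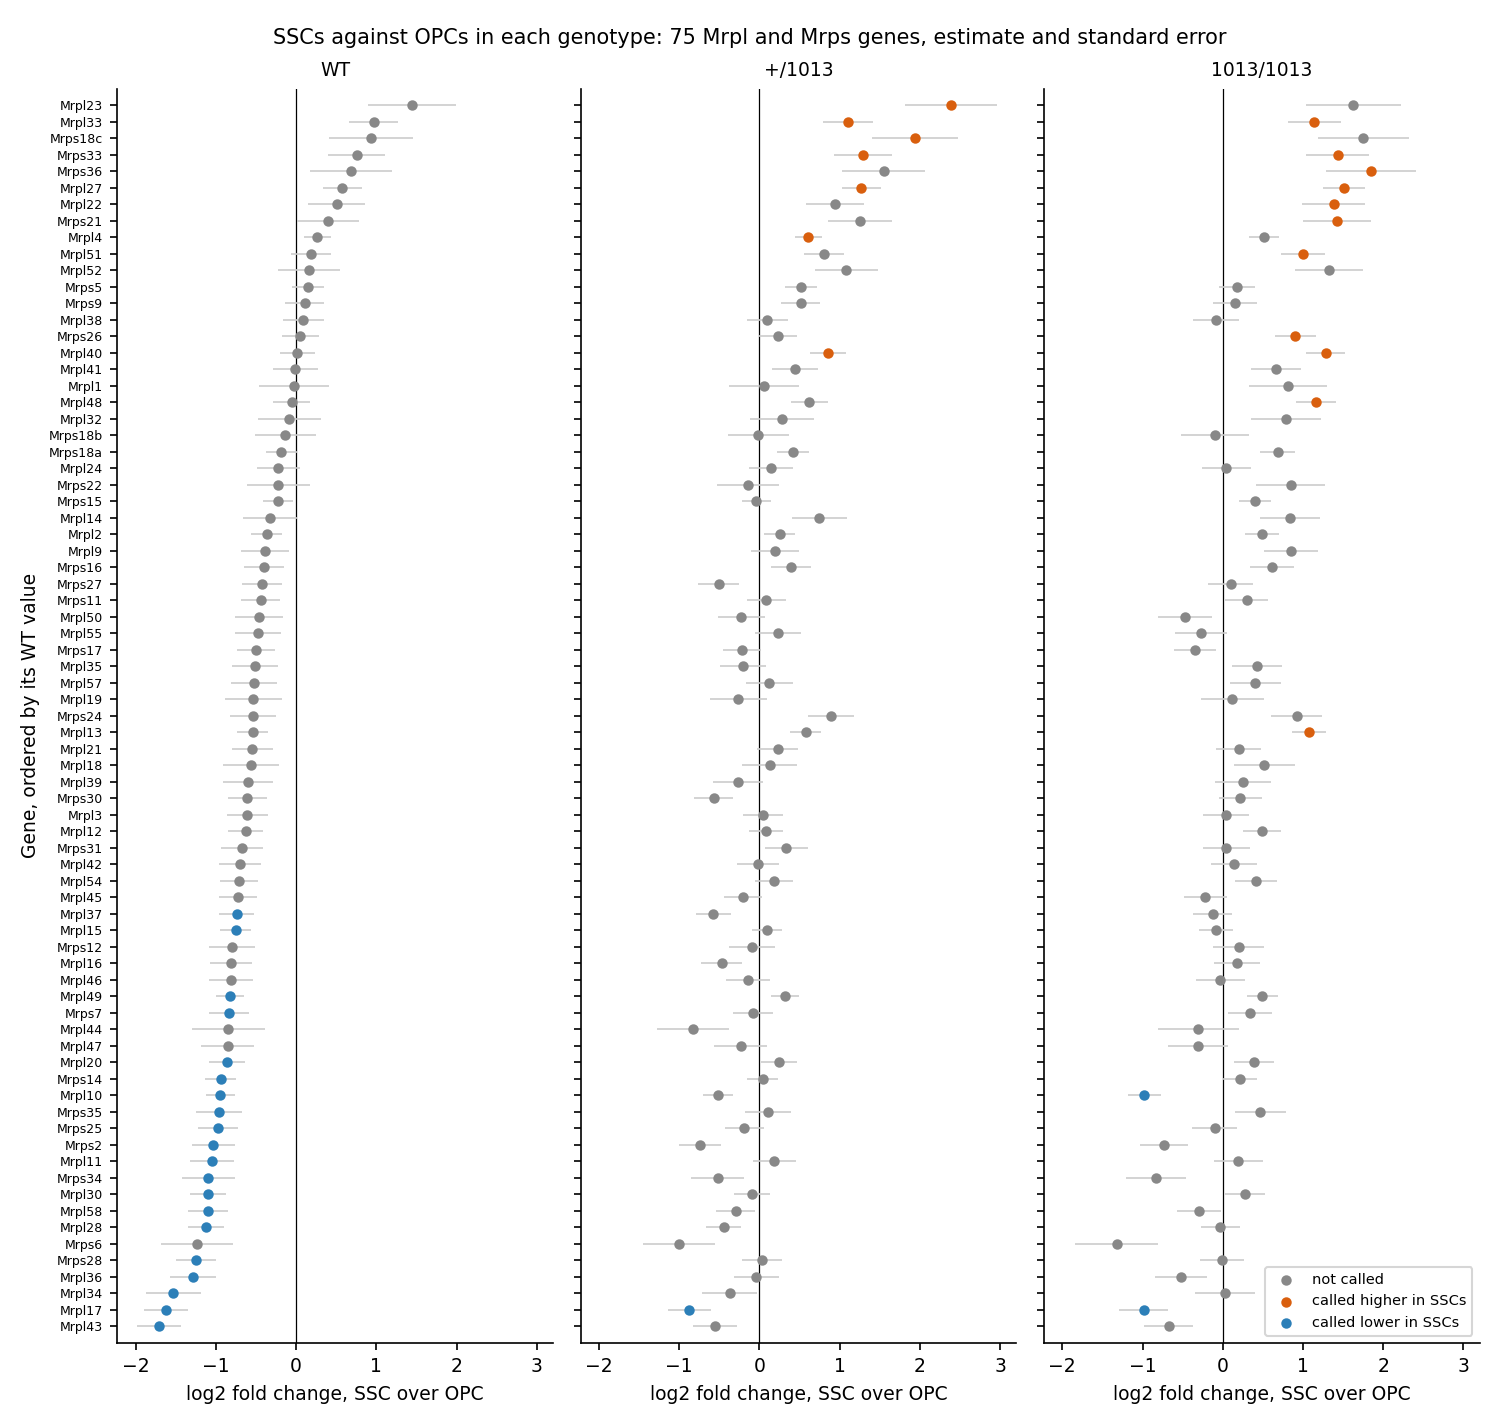
Log2 difference of SSCs over OPCs (x axis, point with SE) for the 75 tested members, ordered by their WT value, in WT, +/1013 and 1013/1013. Blue points were called lower in SSCs (20, 1 and 2 members) and orange points higher (0, 7 and 11 members).

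The same comparison in the mutants gave other calls. In +/1013, 7 members were called higher in SSCs and 1 lower, where 6.44% and 6.02% of all genes were called, and the median of the members was 0.09 against 0.00 for all genes. In 1013/1013, 11 were called higher and 2 lower, where 6.94% and 6.12% of all genes were called, with medians of 0.25 and -0.20. The called share of the members in +/1013 was thus close to that of all genes, in the higher direction slightly above it and in the lower direction below it. Large subunit members, which are 51 of the 78, accounted for 5 of the 7 calls in +/1013 and 7 of the 11 in 1013/1013, close to their share of the family. Mrpl27, Mrpl33, Mrpl40 and Mrps33 were called higher in both mutant genotypes, which is 57.1% of the calls in +/1013 and 36.4% of those in 1013/1013. The same overlap over all genes is not given here, so these shares cannot be read as high or low. Mrpl17 was called lower in all 3 genotypes, and Mrpl10 in WT and 1013/1013. The 3 comparisons use separate libraries but share 1 estimate of the spread. The calls in the mutants depended on the libraries. In +/1013, 1 to 5 members were called with any 1 of the 6 libraries left out (1 without OPC +/1013 replicate 3), and in 1013/1013, 1 member was called without SSC 1013/1013 replicate 1.

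Mrpl27, whose bacterial counterpart reaches into the peptidyl transferase centre, was at 20.01, 19.9 and 13.5 scaled CPM in +/1013 OPCs and 46.2, 38.7 and 43.7 in +/1013 SSCs (log2 1.27 ± 0.24, adjusted p = 0.00367). In 1013/1013 it was at 17.6, 13.3 and 18.1 in OPCs and 51.8 and 41.1 in SSCs (1.51 ± 0.26, adjusted p = 0.00225). All mutant SSC libraries thus lay above all OPC libraries, while the WT SSC values of 32.0, 29.4 and 20.2 reached below the highest OPC value of 21.04. Mrpl40, a large subunit protein without a bacterial counterpart, showed 21.5, 21.6 and 17.3 in +/1013 OPCs against 41.1, 32.2 and 35.6 in SSCs (0.85 ± 0.22, adjusted p = 0.0218). In 1013/1013 it was at 16.8, 20.5 and 21.8 in OPCs against 60.3 and 35.7 in SSCs (1.29 ± 0.24, adjusted p = 0.00374). Its WT SSC values of 24.0, 24.0 and 17.9 lay around the WT OPC values of 20.2, 23.2 and 21.8. Mrps33, a small subunit protein, and Mrpl33 differed by 1.29 and 1.10 in +/1013 and by 1.43 and 1.14 in 1013/1013. Mrpl33 differed little between genotypes within SSCs, where it lay between 20.2 and 30.2 in WT and between 21.005 and 25.7 in the mutants.

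Mrpl23, which encodes a protein at the mouth of the exit tunnel, was the lowest tested member per length and had the widest SE. It was at 0.922, 1.26 and 0.977 scaled CPM in +/1013 OPCs and 6.94, 4.27 and 5.36 in +/1013 SSCs (2.39 ± 0.57, adjusted p = 0.0141). Mrpl4, at another position of the exit tunnel, differed by 0.61 (adjusted p = 0.0331), close to the 1.5-fold limit. Members called in 1013/1013 alone were Mrps36 (1.85 ± 0.56), Mrps21 (1.42), Mrpl22 (1.38), Mrpl48 (1.16), Mrpl13 (1.07), Mrpl51 (1.00) and Mrps26 (0.91). Among these, edgeR called the difference of the cell type effect between 1013/1013 and WT for Mrpl13, given with the genotype effects, and DESeq2 for Mrpl13 and Mrpl48 (DESeq2 adjusted p = 0.0224 for Mrpl48).

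Mrpl17 and Mrpl10 stood on the other side. Mrpl17 was at 63.1, 82.0 and 84.2 in +/1013 OPCs against 48.4, 36.6 and 40.2 in +/1013 SSCs (-0.87 ± 0.27, adjusted p = 0.0469), and at 86.8, 60.2 and 116 in 1013/1013 OPCs against 45.6 and 42.9 in SSCs (-0.98 ± 0.30, adjusted p = 0.0481). Mrpl10, which anchors the stalk that recruits translation factors, was at 44.2, 42.6 and 49.4 in 1013/1013 OPCs against 19.5 and 26.6 in SSCs (-0.98 ± 0.21, adjusted p = 0.00825). In WT its difference was -0.94 (adjusted p = 0.00478) and in +/1013 -0.52 (adjusted p = 0.0818). The groups of both genes did not overlap in any genotype. Its partner in the stalk, Mrpl12, was at -0.63 (adjusted p = 0.0781) in WT, 0.08 in +/1013 and 0.49 in 1013/1013, none of them called. Next to Mrpl17 in the lower direction were Mrps2, at -0.74 (adjusted p = 0.0838) in +/1013, and Mrps6, at -1.32 (adjusted p = 0.111) in 1013/1013. Mrps6 varied most among OPC libraries, from 17.2 to 80.9 scaled CPM within the 1013/1013 genotype, and shares exon bases with Slc5a3 on the same strand.

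**Figure D4:**
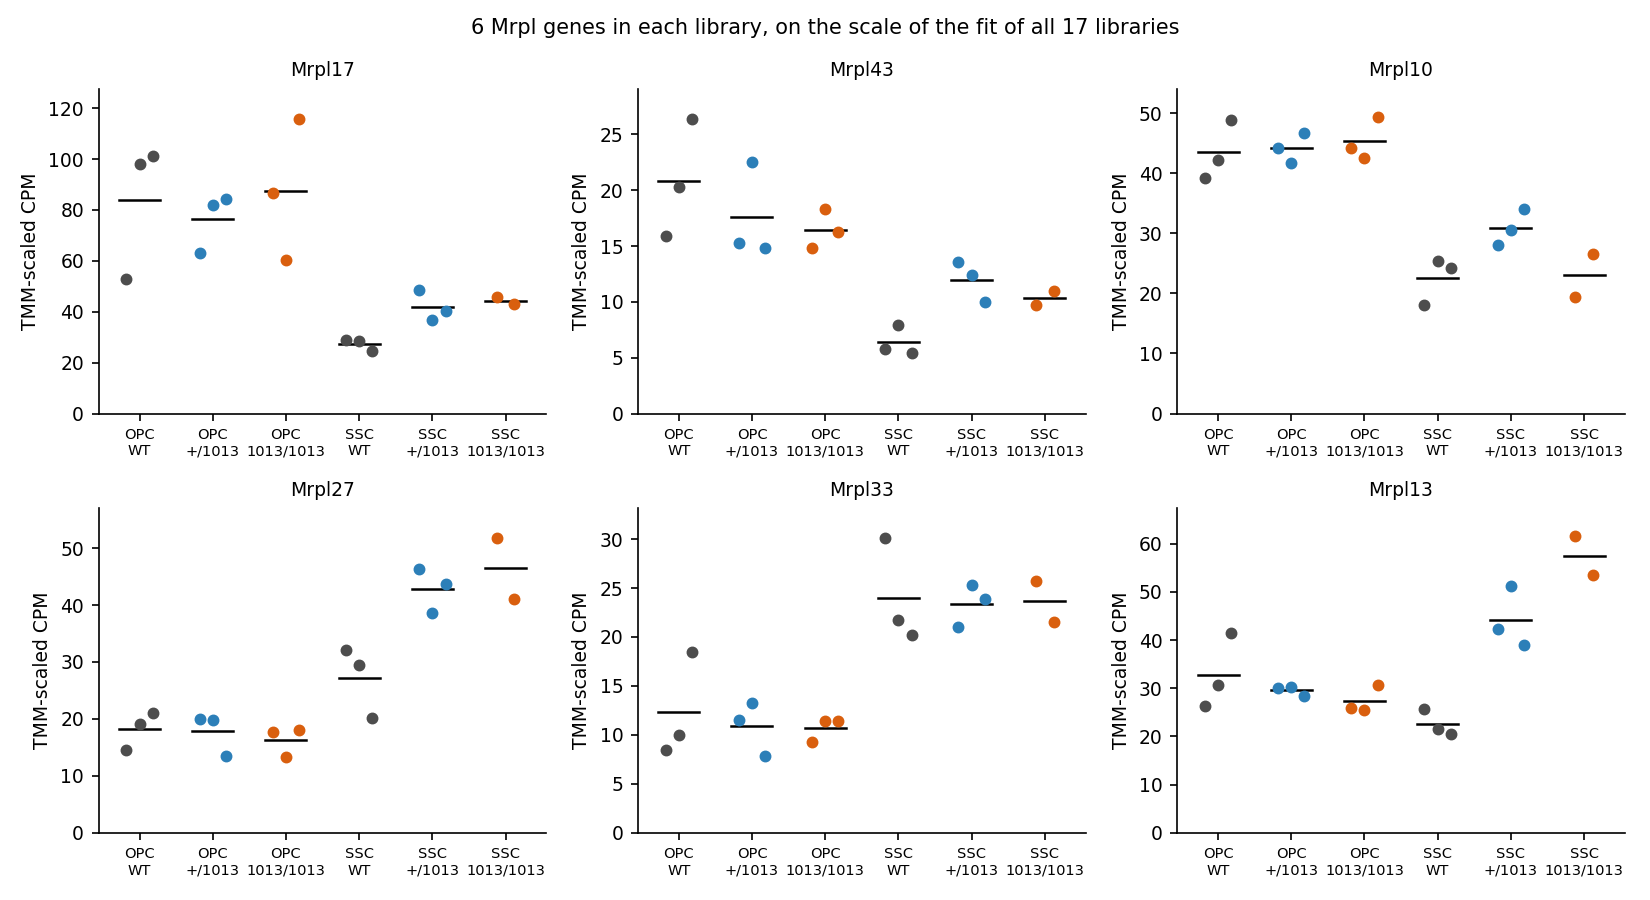
Level of Mrpl17, Mrpl43, Mrpl10, Mrpl27, Mrpl33 and Mrpl13 in each library (points, TMM-scaled CPM) with group means (lines), by cell type and genotype. Mrpl17 and Mrpl10 are lower in SSCs in every genotype, Mrpl27 and Mrpl33 lie higher in SSCs, and the 2 libraries of 1013/1013 SSCs are the highest for Mrpl13.

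Members that are close paralogs or whose name and place differ were followed by rule. Mrps18a, Mrps18b and Mrps18c are paralogs that occupy different places on the ribosome. Mrps18c differed between SSCs and OPCs by 0.93 (adjusted p = 0.268) in WT, 1.94 ± 0.53 (adjusted p = 0.0295) in +/1013 and 1.75 (adjusted p = 0.0596) in 1013/1013. Mrps18b stayed at -0.13, -0.01 and -0.09, and Mrps18a was at -0.18, 0.42 and 0.68. The difference between paralogs was not tested, and reads of paralogs may be shared. Mrps30, named for the small subunit but found in the large one, was at -0.61, -0.57 and 0.22 without a call. Mrps36 was at 0.68 in WT, 1.55 (adjusted p = 0.067) in +/1013 and 1.85 (adjusted p = 0.044) in 1013/1013.

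The comparison of genotypes within OPCs asks whether the Cxcr4 mutation moves the family in the more differentiated cells. No member was called in any of the 3 comparisons (edgeR), where 0%, 0.00617% and 0% of 16207 genes were called for +/1013 with WT, 1013/1013 with WT and 1013/1013 with +/1013. DESeq2 called 0 members as well, beside 0.334%, 0.407% and 0.349% of all genes, shares at which few or no members would be called. At an unadjusted p under 0.05 there were 0, 2 and 1 members, all lower, beside 1.04%, 1.52% and 1.47% of all genes lower. The median log2 differences of the members were -0.11, -0.15 and -0.08, beside 0.00, 0.01 and 0.02 for all genes, and the signs of the first and of the summed level changed with the scaling.

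In 1013/1013 OPCs the member with the smallest p was Mrpl49, a large subunit protein without a bacterial counterpart. It was at 25.7, 26.4 and 24.4 CPM on the scale of the OPC fit in WT, 27.2, 22.8 and 22.2 in +/1013 and 18.5, 16.9 and 17.9 in 1013/1013. The 1013/1013 libraries lay below all others, by -0.52 ± 0.16 from WT (unadjusted p = 0.0115, edgeR) and by -0.44 from +/1013 (unadjusted p = 0.0258, edgeR), less than 1.5-fold in both. Mrpl9 followed with -0.62 from WT (unadjusted p = 0.0333, edgeR) and -0.39 from +/1013, and Mrps25 with -0.46 from WT. In the other direction Mrps6 (0.89), Mrps5 (0.41) and Mrps27 (0.36) had the smallest p against WT. Against +/1013, Mrps15 stood at -0.33 and Mrps6, Mrps5 and Mrpl45 at 0.87, 0.22 and 0.19. Between +/1013 and WT the values were -0.44 for Mrpl45, -0.24 for Mrps14 and -0.38 for Mrpl34 on the lower side, and 0.41 for Mrps27, 0.51 for Mrps22 and 0.18 for Mrps15 on the higher side. All of these had an adjusted p of 0.999 or 1. The WT OPC libraries themselves differed more than the genotypes did, with member medians of -0.38, 0.07 and 0.32 from their own mean.

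Within SSCs the family leaned the same way in both mutants, without a call by the main test. Of the 75 members, 73 had a higher estimate in +/1013 than in WT and 70 in 1013/1013 than in WT, and 0 were called (edgeR) in either, where 0.0736% and 0% of 17659 genes were called. At an unadjusted p under 0.05, 28 and 33 members were higher and 0 lower, beside 7.65% and 8.37% of all genes higher. DESeq2 called 12 and 19 members higher, beside 2.79% and 3.84% of all genes. In 54 and 49 members every mutant library lay above every WT library, beside 14.5% and 16.7% of all genes. The medians were 0.57 and 0.71 over the members against -0.11 and -0.23 over all genes. Both comparisons share the 3 WT libraries and are not independent of each other.

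The shift was spread over the subunits. In +/1013 the median was 0.56 for large and 0.57 for small subunit members, and in 1013/1013 it was 0.74 and 0.59. Members without exon overlap gave 43 of 43 higher in +/1013, with a median of 0.58, and 40 of 43 in 1013/1013, with a median of 0.78. Library by library, the median of the members lay between -0.19 and 0.11 from the WT mean in the WT SSC libraries and between 0.51 and 0.88 in the 5 mutant ones. The lowest WT library, replicate 3, was the one rich in leukocyte markers, and the highest mutant one was 1013/1013 replicate 1. The calls in 1013/1013 turned on a mutant library, with 19 members called higher when SSC 1013/1013 replicate 2 was left out, and a single library then stood for that genotype.

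**Figure D5:**
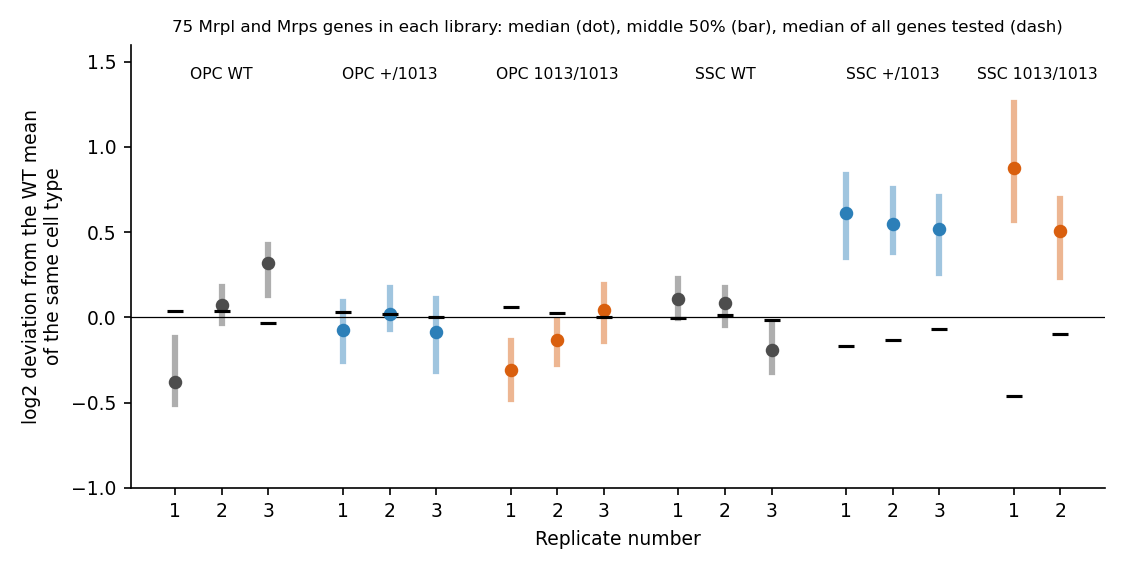
Log2 deviation of the 75 tested members from the WT mean of the same cell type in each library, as the median (dot) and middle 50% (bar) over the members, with the median of all tested genes (dash). All 5 mutant SSC libraries lie between 0.51 and 0.88, above the WT SSC libraries at -0.19 to 0.11, while the OPC libraries spread from -0.38 to 0.32 with no order by genotype.

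Mrpl13, a large subunit protein of bacterial origin, had the smallest p of the family in 1013/1013 SSCs. On the scale of the SSC fit it was at 31.2, 26.1 and 25.7 CPM in WT, 51.1, 61.8 and 46.8 in +/1013 and 77.4 and 64.9 in 1013/1013. All mutant libraries lay above all WT libraries, and the 1013/1013 libraries above the +/1013 ones. The differences from WT were 0.94 ± 0.19 (adjusted p = 0.114) and 1.36 ± 0.21 (adjusted p = 0.0738). Mrpl49 was at 22.5, 22.1 and 18.3 in WT, 51.0, 39.7 and 39.4 in +/1013 (1.05 ± 0.20, adjusted p = 0.113) and 33.8 and 39.7 in 1013/1013. Mrps28 was at 23.5, 18.8 and 18.4 in WT, 44.0, 36.8 and 39.6 in +/1013 (0.99 ± 0.19, adjusted p = 0.114) and 39.4 and 35.7 in 1013/1013. Both genes were thus about as high in 1 mutant genotype as in the other. Mrps14 (0.96 ± 0.18, adjusted p = 0.092) and Mrpl30 (1.33 ± 0.28, adjusted p = 0.107) were next in 1013/1013. Mrps14, a small subunit protein, was at 30.1, 27.5 and 27.5 in WT, 45.8, 50.2 and 44.9 in +/1013 and 58.2 and 52.5 in 1013/1013.

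Few members went the other way. In +/1013 the members with a lower estimate were Mrpl44 (-0.16) and Mrpl33 (-0.06), and in 1013/1013 Mrpl38 (-0.36), Mrpl50 (-0.16) and Mrps17 (-0.06) had the smallest p among 5. Among those named the lowest adjusted p was 0.548, for Mrpl38. Between the mutant genotypes 49 members were higher in 1013/1013 and 26 lower, with a median of 0.15 against -0.05 for all genes, 0 called (edgeR, beside 0% of all genes), 0 at an unadjusted p under 0.05 and 0 called by DESeq2 (beside 1.37% of all genes). Mrpl13 (0.42), Mrps30 (0.64) and Mrpl57 (0.52) stood highest by p, and Mrpl50 (-0.63), Mrpl10 (-0.40) and Mrps9 (-0.38) lowest.

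Other values moved with genotype in SSCs. Reads on no gene made up 3.68% to 4.15% of the WT SSC libraries and 1.504% to 2.69% of the mutant ones. Reads aligned to more than 1 place made up 5.10% to 5.65% in WT, 5.76% to 7.60% in +/1013 and 6.76% and 8.56% in 1013/1013. WT SSC libraries had 21449 to 22599 genes with a count, against 17808 to 19227 in +/1013 and 15748 and 19222 in 1013/1013. Over all 17646 genes with a length, the log2 difference from WT correlated with gene length at a rho of -0.28 in +/1013 and -0.23 in 1013/1013. Over the 75 members this rho was -0.18 and -0.05. The osteoblast lineage list summed to 11538 to 16578 CPM in WT SSCs and to 2263 to 4775 CPM in mutant SSCs. Most of this sum was Col1a1, at 10703 to 14473 CPM in WT, 1183 to 3441 in +/1013 and 2022 to 2720 in 1013/1013 SSCs. Sp7 was also lower in the mutants without overlap, while Alpl, Bglap and Ibsp overlapped between WT and mutant SSCs. The part of any of these values in the higher levels of the members was not tested. Of the 3 leukocyte-rich libraries, SSC WT replicate 3 is the only one in these comparisons. With it left out, the members' median relative to all genes kept its sign in both. The part of leukocyte content in the level of the members was not tested by this.

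Whether the genotype effect differed between cell types was tested as an interaction. For 1013/1013, 1 member was called, Mrpl13, where 0.153% of all genes were called in either direction. Its 1013/1013 effect was larger in SSCs than in OPCs by 1.61 ± 0.29 (adjusted p = 0.049), with scaled CPM of 25.8, 21.4 and 20.6 in WT SSCs, 61.5 and 53.6 in 1013/1013 SSCs, 26.3, 30.6 and 41.5 in WT OPCs and 26.0, 25.5 and 30.8 in 1013/1013 OPCs. Its call was lost under 8 other settings, and with 1 library left out the number of members called ran from 0 (without OPC WT replicate 2, among others) to 15 (without SSC 1013/1013 replicate 2). Mrpl13 shares exon bases with Mtbp on the opposite strand. Mrpl49 (1.31 ± 0.26, adjusted p = 0.0779) and Mrpl30 (1.38, adjusted p = 0.136) came next. For +/1013 no member was called (edgeR), where 0.084% of all genes were, and Mrpl49 (1.14 ± 0.25, adjusted p = 0.168), Mrpl13 (1.11, adjusted p = 0.237) and Mrps28 (1.28, adjusted p = 0.292) had the smallest p.

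Across the family, 74 of 75 interaction estimates were positive for +/1013 (median 0.66, all genes -0.14) and 71 for 1013/1013 (median 0.84, all genes -0.39). At an unadjusted p under 0.05, 25 and 35 members were higher and 0 lower, beside 4.6% and 5.9% of all genes higher, and DESeq2 called 6 and 15 members higher, beside 1.34% and 2.95% of all genes. The negative estimates were those of Mrps27 (-0.09) for +/1013, and of Mrpl38 (-0.18), Mrps6 (-0.08), Mrpl10 (-0.03) and Mrpl50 (-0.01) for 1013/1013. The interaction and the SSC comparisons rest on the same SSC libraries.

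Genes that work with the mitochondrial ribosome were set beside the members by lists. In WT, 0 of 5 other subunits of the mitochondrial ribosome were called between SSCs and OPCs (median -0.57), as were 1 higher and 1 lower of 14 mitochondrial translation factors (median -0.36). Those were Tufm, the mitochondrial elongation factor that delivers aminoacyl-tRNA, at 1.52 (adjusted p = 0.0019), and Tsfm, which recycles it, at -1.08 (adjusted p = 0.0151). Of 26 genes for assembly of the ribosome or modification of its RNA, 1 was higher (Mettl17, 1.47) and 1 lower (Noa1, -1.26), with a median of -0.34. Of 17 mitochondrial aminoacyl-tRNA synthetases, 3 were lower (Ears2, Hars2 and Lars2, median -0.32). Of 13 regulators of mitochondrial biogenesis, 1 was lower, Tfam, which packages and transcribes the mitochondrial genome, at -1.01 (adjusted p = 0.0193), with a median of 0.21. In +/1013 and 1013/1013, Tufm was called higher in SSCs as well, at 2.19 and 2.25.

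Between genotypes in SSCs none of these 5 lists had a call (edgeR). Their medians in +/1013 and 1013/1013 against WT were 0.42 and 0.56 for the other subunits, 0.32 and 0.22 for the translation factors, 0.39 and 0.10 for assembly, -0.05 and -0.37 for the synthetases and -0.08 and 0.01 for the regulators, beside -0.11 and -0.23 for all genes. The products of the organelle's own genome had larger and more variable values. The 12 mitochondrially encoded mRNAs tested had medians of 1.84 and 3.20 with 0 called (edgeR) and 7 and 11 higher at an unadjusted p under 0.05, and the mitochondrial rRNAs had medians of 1.61 and 2.63. In summed CPM the mitochondrially encoded mRNAs ran from 1050 to 3046 in WT SSCs, from 2159 to 7928 in +/1013 SSCs, and stood at 19217 and 5124 in 1013/1013 SSCs. The higher of these was 1013/1013 replicate 1, which also had the highest member level and the fewest genes with a count, and their relation was not tested.

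The cytosolic ribosomal protein genes, which serve translation outside the organelle, differed from the members between the cell types. In WT, 48 of 88 were called higher in SSCs and 11 lower, with a median of 1.33 against -0.53 for the members. In +/1013 it was 73 higher and 2 lower (median 2.79), and in 1013/1013 it was 72 higher and 1 lower (median 2.77). Of all genes, 5.55%, 6.44% and 6.94% were called higher in WT, +/1013 and 1013/1013, and 5.86%, 6.02% and 6.12% lower. The members took 54.5% to 71.1% of the CPM of the cytosolic genes in OPCs, 28.4% to 38.1% in WT SSCs and 20.98% to 27.02% in mutant SSCs, and these 3 ranges did not overlap. Reads aligned to more than 1 place are not in these counts, and they were 7.75% to 10.4% in OPC and 5.10% to 5.65% in WT SSC libraries. How many of them belong to cytosolic genes was not tested. The percentages therefore hold for counted reads and are not ratios of the mRNAs in the cells. Within SSCs, 12 cytosolic genes were called higher in +/1013 than in WT, where 0.0736% of all 17659 genes were called in either direction. Between 1013/1013 and WT SSCs 0% of all genes were called. The median of the cytosolic genes was 1.15 in +/1013 and 1.19 in 1013/1013.

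Promoters were examined for what the members share beside their function. RefSeq (GRCm38.p6) gave a window of 250 bases before to 50 after the start for 69 of the 78 members and for 17423 other protein-coding genes. Each window was searched on both strands for the letters of known binding motifs, where a match is a description and not a bound site. The ETS motif CCGGAAG, read by GABPA among others, was in 26 members (37.7%), against 12.9% of the other genes. The YY1 motif AAGATGGC was in 12 members (17.4% against 3.51%) and the NRF1 core GCATGCGC in 8 (11.6% against 3.91%). At least 1 of these 3 was found in 55.1% of the members and in 18.6% of the other genes. The E-box CACGTG was in 7.25% of the members and 8.92% of the others. TATAAA was in 7.25% against 14.8%, and in none of the members within the 100 bases nearest the start, where 5.95% of the other genes had it.

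The medians of members with and without a motif were set side by side. The 24 tested members with the ETS motif had a higher median SSC over OPC difference than the 42 without it in each genotype, -0.20 against -0.62 in WT, 0.23 against 0.01 in +/1013 and 0.65 against 0.21 in 1013/1013. Between +/1013 and WT SSCs the medians were 0.59 with and 0.51 without, and between 1013/1013 and WT SSCs they were 0.72 and 0.70. With the YY1 motif (12 members) and without it (54), these medians were 0.55 and 0.54 for +/1013 and 0.83 and 0.70 for 1013/1013. For SSCs over OPCs the YY1 medians were -0.62 and -0.49 in WT, -0.03 and 0.13 in +/1013, and 0.32 and 0.24 in 1013/1013. With the NRF1 core (8 members) and without it (58), they were -0.26 and -0.53, 0.09 and 0.08, and 0.52 and 0.25. Against WT SSCs the NRF1 medians were 0.38 and 0.57 for +/1013, and 0.61 and 0.74 for 1013/1013. These are descriptions, and none of the differences was tested.

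The promoters of 5 members that carry the cell type comparison follow, from 150 bases before to 20 after the start (GRCm38.p6, 5′ to 3′ on the strand of the gene), with the motif matches in capitals. Mrpl17, Mrpl43 and Mrpl10 were called lower in SSCs, and Mrpl27 and Mrpl33 higher in SSCs of both mutants. The capitals are the NRF1 core in Mrpl17 (read on the opposite strand) and Mrpl10, the ETS motif at 2 places in Mrpl43 and at 1 in Mrpl27, and in Mrpl33 the NRF1 core on the opposite strand followed by the ETS motif.
Mrpl17, chr7:105811068-105811237, minus strand: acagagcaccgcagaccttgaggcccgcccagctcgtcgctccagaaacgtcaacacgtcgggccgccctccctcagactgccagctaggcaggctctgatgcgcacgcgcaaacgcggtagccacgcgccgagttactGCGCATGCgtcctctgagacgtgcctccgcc
Mrpl43, chr19:45006423-45006592, minus strand: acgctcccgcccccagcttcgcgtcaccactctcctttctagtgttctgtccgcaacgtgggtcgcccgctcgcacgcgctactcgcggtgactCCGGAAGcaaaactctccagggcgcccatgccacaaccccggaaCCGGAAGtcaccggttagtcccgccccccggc
Mrpl10, chr11:97041432-97041601, plus strand: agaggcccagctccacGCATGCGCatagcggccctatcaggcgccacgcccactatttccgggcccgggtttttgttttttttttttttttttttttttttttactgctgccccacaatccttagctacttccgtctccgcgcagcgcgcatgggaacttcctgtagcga
Mrpl27, chr11:94653641-94653810, plus strand: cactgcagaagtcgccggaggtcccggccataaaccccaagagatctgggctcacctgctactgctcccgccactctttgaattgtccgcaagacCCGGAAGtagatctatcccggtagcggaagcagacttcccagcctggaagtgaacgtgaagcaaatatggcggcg
Mrpl33, chr5:31613801-31613970, plus strand: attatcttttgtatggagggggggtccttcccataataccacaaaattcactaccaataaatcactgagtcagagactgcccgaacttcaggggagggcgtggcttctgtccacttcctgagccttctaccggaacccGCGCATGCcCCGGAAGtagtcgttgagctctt

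Among these 5 genes, which were chosen for their calls, both motifs were found in members called in either direction. In the whole windows the NRF1 core was in Mrpl17 and Mrpl10, lower in SSCs, and in Mrpl33, higher in mutant SSCs. The ETS motif was in Mrpl17 and Mrpl43, lower in SSCs, and in Mrpl27 and Mrpl33. Of the 78 members, 18 (23.1%) have the start of another protein-coding gene in the opposite orientation within 1000 bases upstream of their own start. The share was 6.77% of 22028 protein-coding genes by the same rule. Pairs in opposite orientation that overlap at their starts, as the members Mrpl46 and Mrps11 do, were not counted.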

How the data were processed

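Per the labels and the methods of the study, the authors made cDNA from 3000 sorted cells per pool with SMART-Seq v4 (12 PCR cycles), built Nextera XT libraries, removed short reads, aligned to mm10 with STAR and counted reads per gene with HTSeq. Their own tests used DESeq2. Versions, the strand setting and the annotation release are not given in the sources used here. The values used are the deposited counts, whole numbers per gene with no normalization. HTSeq's summary rows were left out of the totals and of all fits. They held 1.15% to 2.62% of reads on no gene in OPC and 1.504% to 4.15% in SSC libraries, and 1.87% to 3.93% were ambiguous. Reads aligned to more than 1 place made up 7.75% to 10.4% in OPC and 5.10% to 8.56% in SSC libraries.

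Of the 55335 gene identifiers, 55154 matched GENCODE M21, which gave lengths, overlaps and neighbours. R 4.3.3 with edgeR 4.0.16 fitted quasi-likelihood models (legacy = TRUE) after filterByExpr and TMM, for each cell type by genotype, and for all 17 libraries for cell types and interactions, without covariates. Calls needed an adjusted p (Benjamini-Hochberg over all genes tested) under 0.05 and at least a 1.5-fold difference. The fits were tested on simulated data. DESeq2 1.42.0, other scalings and filters, a replicate block and left-out libraries were alternatives, and Python 3.11.15 made the summaries. TPM used the union of exon bases.

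The members and all lists (other mitochondrial ribosome subunits, translation factors, assembly genes, aminoacyl-tRNA synthetases, mitochondrially encoded RNAs, biogenesis regulators and cytosolic ribosomal proteins) were chosen with earlier results of these data known. Genes were named by rule: the 5 highest and 3 lowest members per length in each cell type, the called members (at most 8 per direction, or the 3 with the smallest p where fewer than 3 were called), and 8 members chosen for their name or paralogs. Further members are named for exon overlap or as the whole of a short list.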

Additional observations from a re-analysis of the deposited data

Results flagged for a closer look

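Mrpl13 stood out because its genotype effect differed between the cell types in a direct test of that difference. The 1013/1013 effect on Mrpl13 was larger in SSCs than in OPCs by 1.61 on the log2 scale (SE 0.29, edgeR adjusted p = 0.049). The estimate was 1.36 within SSCs and the OPC libraries of WT and 1013/1013 overlapped. The call was lost under 8 other settings, among them DESeq2's size factors, upper quartile scaling, no filter on low counts and the replicate block. It was also lost with OPC WT replicate 2 left out, where 0 members were called. No test for a single library standing apart was run on groups of 2 or 3 libraries.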

How the results depend on the processing

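In the comparison of SSCs with OPCs, the number of members called in WT (20) was 32 with DESeq2, 11 without a filter on low counts, 12 with Col1a1 and Col1a2 taken out of the library totals, 3 with the leukocyte-rich libraries left out and 11 with only the 2 groups fitted. In +/1013 (8) it was 15 with DESeq2, 2 without the filter, 5 with the replicate block and 22 with library totals only. In 1013/1013 (13) it was 20 with DESeq2, 5 without the filter, 6 with the block, 27 with library totals only and 0 with only the 2 groups fitted. In SSCs, DESeq2 called 12 members for +/1013 and 19 for 1013/1013 against WT, and a fit of all 17 libraries called 2 and 4. For the interactions DESeq2 called 6 and 15 members, and the call of Mrpl13 (1) went to 0 with DESeq2's size factors, upper quartile scaling, no filter, the replicate block, legacy = FALSE, library totals only, the collagens taken out, or the leukocyte-rich libraries left out. The cause of these moves was not tested. Taking out the leukocyte-rich libraries or the collagens, and using library totals only, were chosen after seeing the data.

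With 1 library left out at a time, the number of members called ran from 10 to 24 in WT, 1 to 5 in +/1013 and 1 to 16 in 1013/1013 for SSCs against OPCs, from 0 to 19 for 1013/1013 against WT in SSCs, from 0 to 1 between the mutants in SSCs and from 0 to 15 for the 1013/1013 interaction. It stayed at 0 in the OPC comparisons, for +/1013 against WT in SSCs and for the +/1013 interaction. Where these leave 1 library for 1013/1013 SSCs, it is assumed to vary like the other groups. The medians that changed sign when 1 library was left out ran from -0.20 to 0.052 (OPC, +/1013 with WT), from -0.18 to 0.0044 (OPC, between mutants) and from -0.084 to 0.24 (SSC, between mutants).

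The median of the members changed sign to 0.25 (WT, SSCs against OPCs, library totals only), -0.034 (+/1013, SSCs against OPCs, collagens taken out), 0.017 (OPC, +/1013 with WT, library totals only) and 0.052 (the same, leukocyte-rich libraries left out). Taken relative to the median of all genes, the members ran from -0.94 to -0.36 for SSCs against OPCs in WT, from 0.50 to 0.80 for +/1013 and from 0.65 to 1.59 for 1013/1013 against WT in SSCs, with no change of sign. The summed level changed sign for SSCs over OPCs in WT (-0.60 with size factors, -0.38 without the collagens) and +/1013 (-0.054 without the collagens), and in OPCs for +/1013 over WT (-0.070 and -0.033) and 1013/1013 over WT (-0.12 and -0.18).

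Replicate numbers did not pair the libraries. Same-numbered libraries had correlations of their deviations from -0.27 to 0.27, 6 of 40 pairs were over 0.1, and 0 of 17 libraries correlated best with their own number in every group. Mrps10, Mrps23 and Mrpl53 had too few counts to be tested, and the cause was not tested.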

Other observations

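Mrpl49 and Fau start within 1000 bases of each other in opposite orientation, a pair noticed after its values were seen. Fau encodes a cytosolic ribosomal protein fused to a ubiquitin-like protein. In WT, Fau was higher in SSCs than in OPCs by 2.83 on the log2 scale (edgeR adjusted p = 3.18e-06), while Mrpl49 was lower, at -0.82. In +/1013 the values were 4.23 for Fau and 0.32 for Mrpl49, and in 1013/1013 they were 3.91 and 0.49. Between +/1013 and WT SSCs both genes stood at about the same distance, 1.00 for Fau and 1.05 for Mrpl49, and neither was called.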
